A study of Mus musculus with 12 samples.

Results

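Collagen chains were taken as all genes whose symbol has the form of a collagen alpha chain (Col, a type number, a and a chain number) in both deposited count tables. The rule found 44 of 55228 genes, and 43 of them passed the low-count filter of the test; Col10a1 did not. The libraries came from the mesenchyme of the bladder and of the pelvic urethra of untreated wild-type CD-1 mouse embryos, all female. The embryos were taken at E14.5 or E18.5 (days of embryonic life), which with the compartments gives 4 groups of 3 libraries and 12 in all. Mesenchyme was freed from epithelium mechanically after cold trypsin digestion, tissue was pooled within litters, and the 3 libraries of a group came from 3 independent litters of a stage. Each library is therefore a litter and a mixture of mesenchymal cell types, with whatever epithelium stayed attached.

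Collagens are extracellular matrix proteins built from alpha chains that wind around each other into a rod, and the number after Col names the type while the number after a names the chain. Fibrillar types form the tensile cables of connective tissue, network types form the sheets of basement membranes, FACIT collagens (fibril-associated collagens with interrupted helices) decorate the surface of fibrils, and transmembrane types stay anchored in the cell that makes them. In the bladder wall, fibrillar collagens lie between and around smooth muscle bundles and bear the load as the organ fills, while type IV collagens ensheath the muscle cells and underlie the urothelium.

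Levels are given as CPM, a gene's counts relative to its library's total, scaled between libraries by edgeR's TMM factors. The ± after a level is the SD over 3 libraries. Levels of different chains were compared only after division by the summed exon length of the gene (CPM per kilobase). Log2 differences are bladder minus urethra, or E18.5 minus E14.5, ± SE, and a chain was called where edgeR's quasi-likelihood test gave an adjusted p under 0.05 (Benjamini-Hochberg over the 18805 genes tested). Each difference was recomputed under 20 alternatives (19 for the change between stages), which leave out a library or change the scaling, filter, tool or model, and many changes of a call are given with the values found there; the rest are counted. In bulk tissue, fewer cells of a type and less RNA per cell cannot be told apart.

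Total counts ranged from 21495169 to 36349777, and 3 counts corresponded to 0.0761 to 0.161 CPM. Each stage was deposited as its own table, so stage and any difference in handling between the tables cannot be told apart. Mesenchymal markers were present in all 12 libraries (9 genes, 1889 to 2138 CPM summed in bladder and 2055 to 3048 in urethra at E14.5, 1476 to 1762 and 2015 to 2047 at E18.5). Epithelial markers were present too (15 genes, 378 to 1808, 717 to 1549, 10652 to 14039 and 3020 to 4609 CPM in the same order). At E14.5 replicate 1 of each compartment had the highest sum of epithelial and of skeletal muscle markers, and results that rest on those libraries are also given without them.

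**Figure D1:**
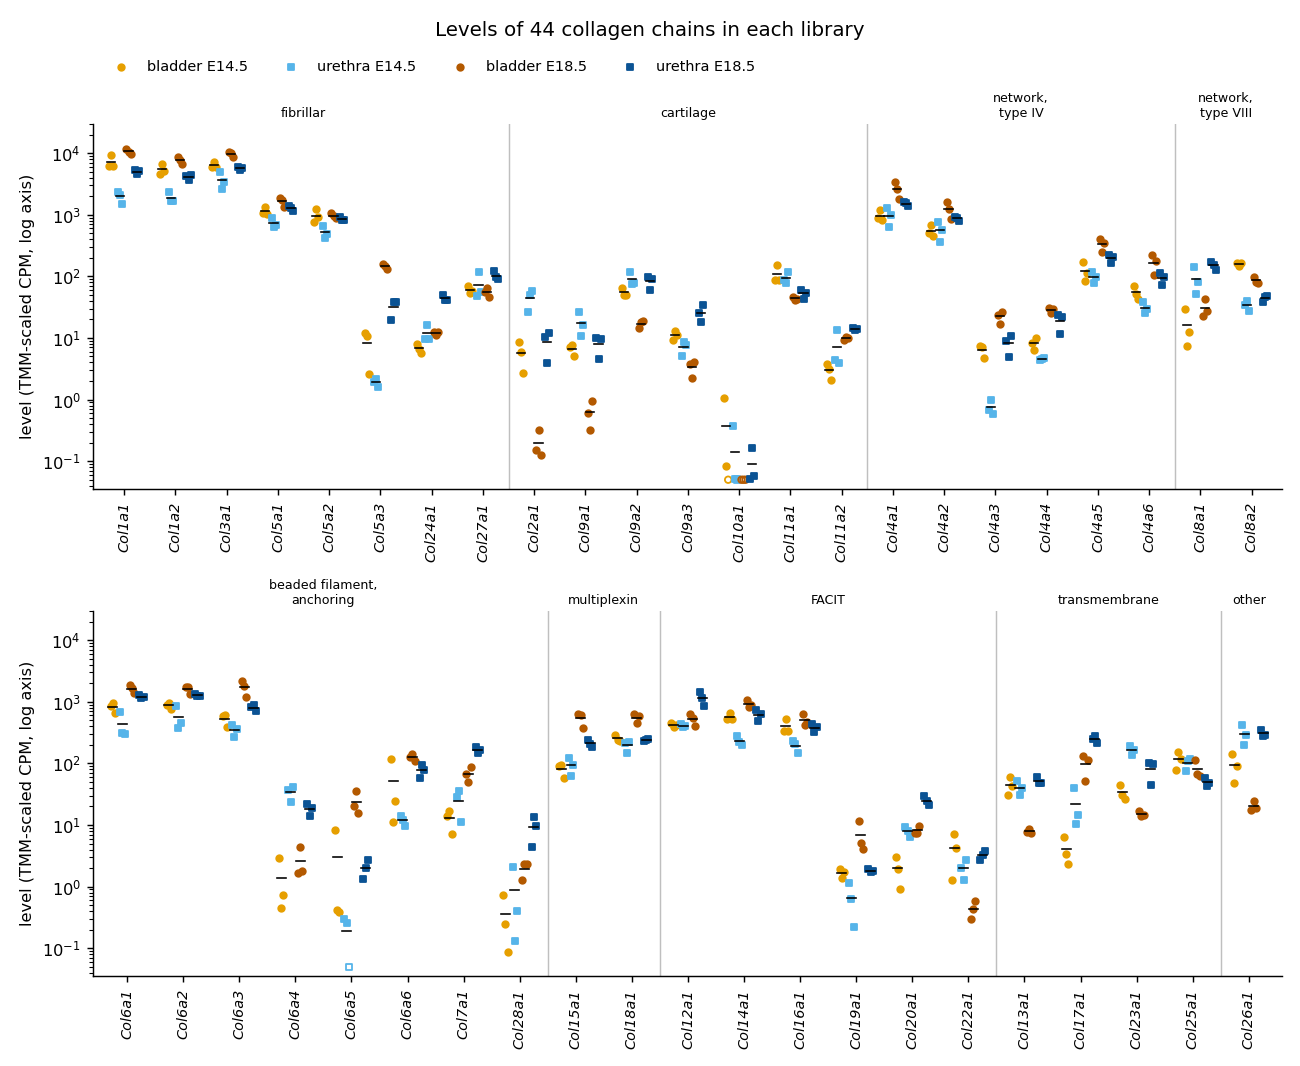
Level of each of the 44 chains (TMM-scaled CPM, log axis) in the 12 libraries, grouped by collagen class; circles are bladder, squares urethra, light colours E14.5 and dark colours E18.5, bars are means of 3 libraries, and open symbols at the bottom mark libraries with 0 counts. Levels span from the type I and III chains, at 1516 CPM or more, to Col10a1 at 1.05 CPM or less.

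Summed over the chains, collagen RNA was higher in bladder than in urethra and higher at E18.5 than at E14.5. The 44 chains summed to 27523 ± 4578 CPM in bladder and 14061 ± 3363 in urethra at E14.5, and to 43814 ± 5785 and 27070 ± 1757 at E18.5. Within a stage the bladder libraries did not overlap the urethral ones, and within a compartment the stages did not overlap. Not every class went with this sum. At E18.5 the mean sums of the cartilage, type VIII, FACIT and transmembrane chains and of Col26a1 were higher in urethra, with overlapping libraries for FACIT. Those of the remaining classes were higher in bladder. Col1a1, Col1a2 and Col3a1 together made up 66.3% to 70.0% of collagen counts in bladder and 51.4% to 55.2% in urethra at E14.5, and 61.8% to 66.1% and 53.0% to 57.1% at E18.5. Per kilobase, the most abundant chain was Col1a1 in 3 groups and Col3a1 in the urethra at E14.5.

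Chain by chain the compartments differed in both directions. At E14.5, 15 of the 43 tested chains were higher in bladder, against 12.4% of all genes tested, and 11 were higher in urethra, against 12.5% of all genes. At E18.5, 15 chains were higher in bladder (all genes 18.52%) and 16 higher in urethra (all genes 16.2%). Scaled by library totals in place of TMM factors, the all-gene split at E18.5 moved from 3483 higher in bladder and 3053 higher in urethra to 1888 and 5640. The median log2 difference over the 43 chains was 0.34 at E14.5 and 0.36 at E18.5, with medians over all genes of -0.0035 and 0.0474. The compartment comparisons of the stages share no library. Here 9 chains were higher in bladder at both stages, 9 were higher in urethra at both, and 0 were called in opposite directions. Another 4 (Col11a1, Col4a2, Col6a2 and Col25a1) were called at neither. These patterns were not counted over all genes, so they are not read as particular to collagens. At E18.5, where same-numbered libraries are read as pairs, the groups of 7 chains overlapped. In these, bladder was the higher of all 3 pairs for Col5a1, Col5a2, Col4a2, Col4a6, Col6a2 and Col16a1, and urethra the higher of all 3 for Col11a1. Of the 7, Col4a6 alone was called, and with the pairing in the model no other was. Overlap and order within pairs were counted for the chains alone, so their share over all genes is not known here.

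With stage, more chains rose than fell. In bladder, 25 chains were higher at E18.5 (all genes 23.7%) and 10 lower (all genes 22%). In urethra, 24 were higher (all genes 13.6%) and 4 lower (all genes 10.8%). The median over chains was 0.86 in bladder and 1.03 in urethra, with all-gene medians of -0.0230 and -0.0553. The stage comparisons of the compartments share no library. Here 19 chains rose in both compartments, Col2a1, Col11a1 and Col23a1 fell in both, and Col9a3 fell in bladder and rose in urethra. How many of all genes did the same was not counted. Each stage comparison shares its libraries with the compartment comparisons.

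The difference between bladder and urethra itself changed between stages for 10 chains: 1 shifted toward bladder (all genes 4.66%) and 9 toward urethra (all genes 4.05%). These were Col15a1 toward bladder, and Col9a1, Col9a2, Col9a3, Col4a3, Col8a2, Col12a1, Col22a1, Col13a1 and Col26a1 toward urethra. Of the 33 chains not called, 11 were called in at least 1 of 19 alternatives. Col24a1 (adjusted p = 0.0517) was called toward urethra in 7 of them, without urethral E14.5 replicate 2, or with DESeq2, median-ratio factors, library totals, no low-count filter, the stricter filter or the replicate block (log2 differences -1.07 to -1.39, adjusted p = 0.00578 to 0.0476). Col18a1 was called toward bladder in 5, Col5a2 toward urethra in 4, and the other 8 in 1 to 3.

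**Figure D2:**
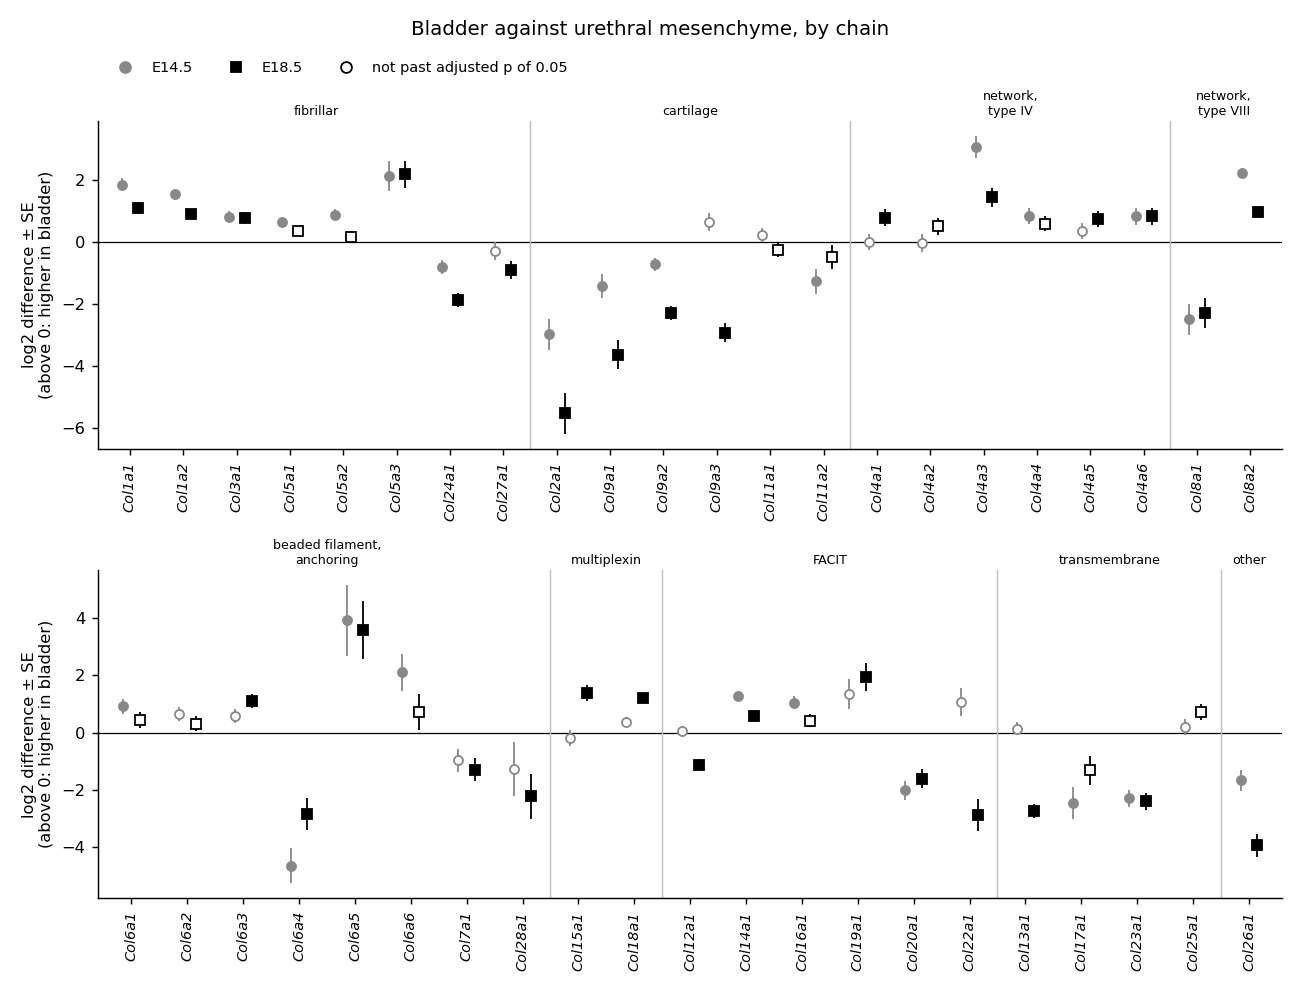
Log2 difference between bladder and urethral mesenchyme (± SE) of the 43 tested chains at E14.5 (grey circles) and E18.5 (black squares); filled symbols passed an adjusted p of 0.05 and values above 0 are higher in bladder. Type I and III chains lie above 0 at both stages, Col2a1, Col8a1, Col6a4, Col20a1, Col23a1 and Col26a1 below 0 at both.

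**Figure D3:**
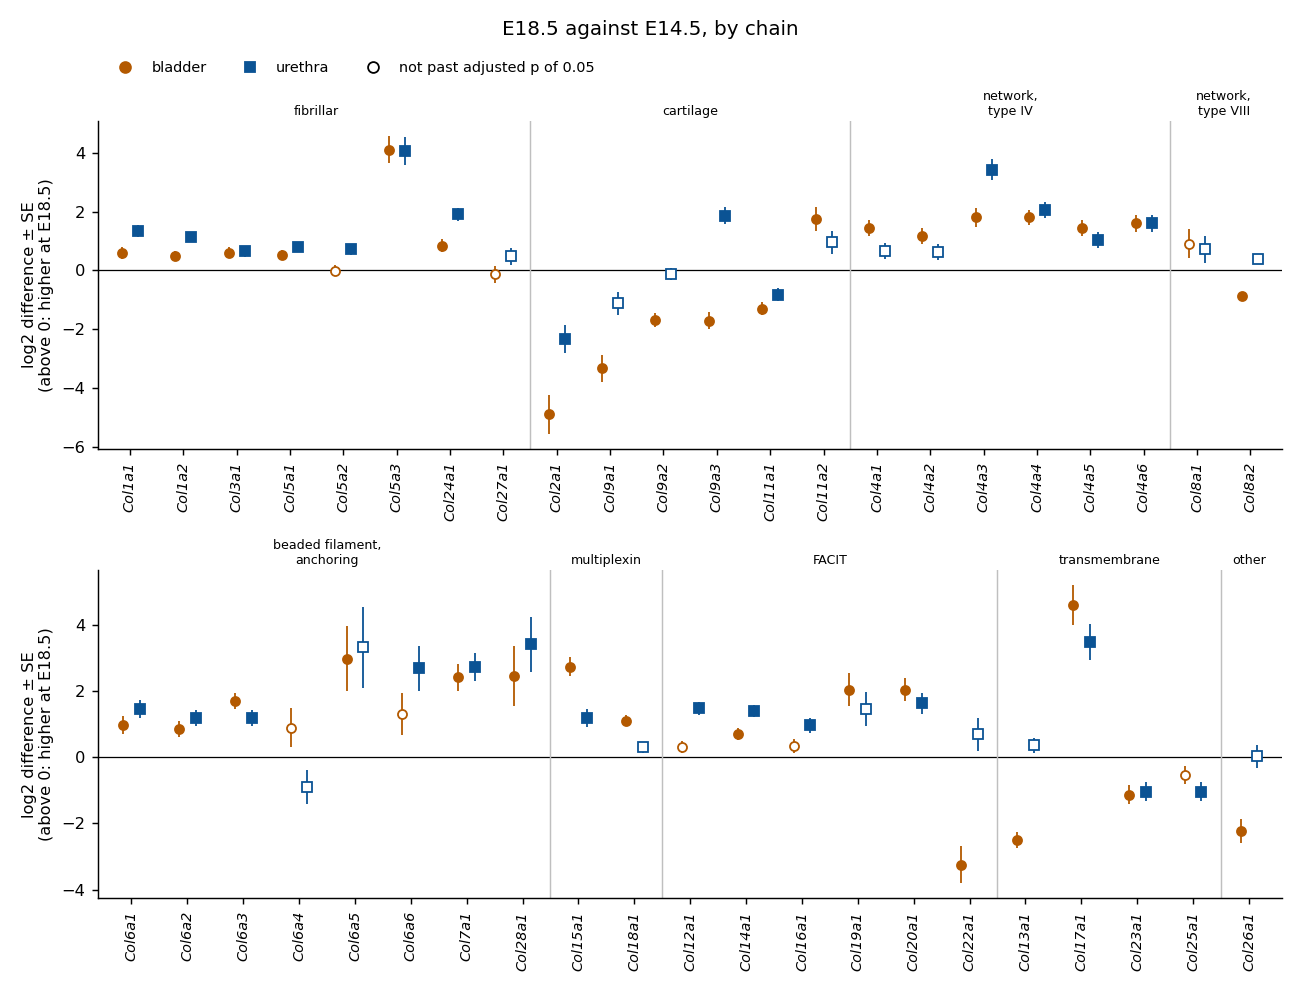
Log2 difference between E18.5 and E14.5 (± SE) of the 43 tested chains in bladder (circles) and urethra (squares); filled symbols passed an adjusted p of 0.05 and values above 0 are higher at E18.5. Col5a3 and Col17a1 lie furthest above 0 in both compartments, and Col2a1 furthest below 0.

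The chains of the major fibrils were higher in bladder. Col1a1 (chr11:94936224-94953042) and Col1a2 encode the chains of type I collagen, the main load-bearing fibril. Col1a1 was measured at 6090, 9211 and 6134 CPM in bladder and 2303, 2116 and 1516 in urethra at E14.5, and 11831, 10451 and 9796 in bladder and 5240, 4540 and 5146 in urethra at E18.5. Bladder exceeded urethra without overlap at both stages, by 3.61-fold at E14.5 (log2 difference 1.85 ± 0.20, adjusted p = 0.000121) and 2.15-fold at E18.5 (log2 difference 1.104 ± 0.20, adjusted p = 0.000885). It rose with stage in urethra (log2 difference 1.33 ± 0.20, adjusted p = 0.000926) and in bladder (log2 difference 0.58 ± 0.20, adjusted p = 0.0276).

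Col1a2 followed the same order of groups, at 4627, 6681 and 5082 CPM in bladder and 2345, 1654 and 1649 in urethra at E14.5, and 8518, 7671 and 6774 in bladder and 4301, 3718 and 4342 in urethra at E18.5. Its libraries did not overlap in any of the 4 comparisons, and it was higher in bladder by 2.9-fold at E14.5 (log2 difference 1.54 ± 0.19, adjusted p = 0.000223) and 1.86-fold at E18.5 (log2 difference 0.89 ± 0.18, adjusted p = 0.00221). It rose by 1.13 on the log2 scale in urethra (adjusted p = 0.00147) and by 0.49 in bladder (adjusted p = 0.0442). Col3a1, the chain of type III collagen, which mixes with type I in distensible tissue, was measured at 5857, 7079 and 6044 CPM in bladder and 4883, 2611 and 3388 in urethra at E14.5, and 10323, 9929 and 8583 in bladder and 5921, 5217 and 5827 in urethra at E18.5. Its lowest bladder library stood above its highest urethral library at each stage, with a smaller difference at E14.5 (log2 difference 0.80 ± 0.20, adjusted p = 0.0121) than that of the type I chains and a like one at E18.5 (log2 difference 0.77 ± 0.20, adjusted p = 0.0091). It rose by 0.60 in bladder (adjusted p = 0.0246) and 0.64 in urethra (adjusted p = 0.0331).

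The balance of these chains within a library differed between groups. Per kilobase, the ratio of Col1a1 to Col3a1 was 1.52 to 1.95 in bladder and 0.669 to 1.21 in urethra at E14.5, and 1.57 to 1.71 and 1.30 to 1.32 at E18.5. Bladder and urethral libraries did not overlap at either stage. The ratio of Col1a1 to Col1a2 per kilobase was 2.29 to 2.61 and 1.74 to 2.42 at E14.5, where the compartments overlapped, and 2.58 to 2.74 and 2.24 to 2.31 at E18.5, where they did not. Summed smooth muscle markers (7 genes) were also higher in bladder, at 6324 to 8199 against 1646 to 3512 CPM at E14.5 and 20817 to 37630 against 2375 to 2731 at E18.5. In urethra none of the 7 was called between the stages (all genes 13.6% higher and 10.8% lower at E18.5), while Col1a1, Col1a2 and Col3a1 were. The part of smooth muscle cells in the fibrillar differences was not tested.

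The windows at the start of Col1a2 and Col3a1, 2 of these fibril genes, differ in base composition (61% and 37.7% G and C). Both are shown from the RefSeq promoter table of GRCm38.p6, from 250 bases before to 50 after a gene's start, with matches to the TATA box (TATAAA), the CCAAT box and the GC box (GGGCGG) on either strand in capitals.
Col1a2 (chr6:4505368-4505667, plus strand): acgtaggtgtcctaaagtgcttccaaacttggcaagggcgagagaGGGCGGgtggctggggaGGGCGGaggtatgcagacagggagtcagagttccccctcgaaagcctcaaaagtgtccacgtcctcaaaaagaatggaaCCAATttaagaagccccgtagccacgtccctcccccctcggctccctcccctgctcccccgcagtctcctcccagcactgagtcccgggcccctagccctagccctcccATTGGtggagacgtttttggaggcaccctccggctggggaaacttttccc
Col3a1 (chr1:45311288-45311587, plus strand): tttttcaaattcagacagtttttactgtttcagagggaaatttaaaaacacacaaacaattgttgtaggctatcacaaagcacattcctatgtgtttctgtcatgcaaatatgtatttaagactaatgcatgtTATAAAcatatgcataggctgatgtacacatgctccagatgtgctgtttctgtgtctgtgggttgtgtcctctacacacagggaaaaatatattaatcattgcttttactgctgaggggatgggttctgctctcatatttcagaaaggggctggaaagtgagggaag
The Col1a2 window holds 2 CCAAT boxes and 2 GC boxes, and the Col3a1 window 1 TATA box. The whole Col1a2 window lies inside the span of the counted gene, which begins at chr6:4504814, so it belongs to a later start. Windows were given for 35 of the 44 chains (38 windows). None was found for Col1a1, Col5a2, Col2a1, Col9a3, Col4a3, Col12a1, Col14a1, Col22a1 and Col26a1. A TATA box occurred in 5 of the 38 collagen windows (13.2%) and 13.6% of all 32851 windows. A CCAAT box occurred in 13 (34.2%) and 37.4%, and a GC box in 23 (60.5%) and 35.7%. A match describes these letters alone.

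Type V collagen sits inside type I fibrils and limits their diameter. Col5a1 and Col5a2, its common chains, were higher in bladder at E14.5 (log2 difference 0.65 ± 0.17, adjusted p = 0.0166 and log2 difference 0.89 ± 0.19, adjusted p = 0.00579). At E18.5 their libraries overlapped (adjusted p = 0.123 and 0.559). Col5a1 rose in bladder (log2 difference 0.52 ± 0.17, adjusted p = 0.0246) and urethra (log2 difference 0.81 ± 0.17, adjusted p = 0.00576). Col5a2 was called in urethra (log2 difference 0.72 ± 0.19, adjusted p = 0.0167) and stood at -0.01 in bladder (adjusted p = 0.971). Per kilobase, Col5a1 exceeded Col5a2 by 1.22 to 1.59 times in bladder at E14.5 and by 1.73 to 2.04 times at E18.5.

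The rarer type V chain Col5a3 had the largest rise with stage of the fibrillar chains. It was measured at 12.01, 10.6 and 2.64 CPM in bladder and 1.93, 2.196 and 1.58 in urethra at E14.5, and 160, 145 and 130 in bladder and 19.7, 37.9 and 38.5 in urethra at E18.5. Every E18.5 library stood above every E14.5 library, and the rise was 17.2-fold in bladder (log2 difference 4.11 ± 0.47, adjusted p = 6.92e-05) and 16.7-fold in urethra (log2 difference 4.06 ± 0.49, adjusted p = 0.000488). Bladder was higher at E14.5 (log2 difference 2.13 ± 0.48, adjusted p = 0.00931) and at E18.5 (log2 difference 2.18 ± 0.43, adjusted p = 0.00231). Its E14.5 bladder libraries differed among themselves, replicate 3 standing near the urethral values.

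Col24a1 and Col27a1, fibrillar chains known from bone and cartilage, went the other way. Col24a1 was measured at 8.04, 6.54 and 5.75 CPM in bladder and 9.45, 16.5 and 9.47 in urethra at E14.5, and 12.7, 11.3 and 12.3 in bladder and 50.2, 41.03 and 41.4 in urethra at E18.5. Urethra was the higher by 1.75-fold at E14.5 (log2 difference -0.81 ± 0.22, adjusted p = 0.0203) and 3.65-fold at E18.5 (log2 difference -1.87 ± 0.22, adjusted p = 5.55e-05). The chain rose in both compartments (log2 differences 0.84 and 1.901, adjusted p = 0.00838 and 0.000296). Col27a1 was higher in urethra at E18.5 (log2 difference -0.89 ± 0.29, adjusted p = 0.0302) and not called at E14.5 (adjusted p = 0.499) or with stage (adjusted p = 0.73 and 0.245). Its urethral E14.5 libraries stood at 48.04, 117 and 54.8 CPM. Without replicate 2, the highest, the E14.5 difference turned from -0.28 to 0.23 (adjusted p = 0.382), and the rise in urethra was called (log2 difference 0.99, adjusted p = 0.00447), as was the change of the compartment difference (log2 difference -1.13, adjusted p = 0.0152).

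Several fibrillar calls near the threshold were lost in 1 or more alternatives, each given with the log2 difference it had there. Col3a1 lost its E14.5 compartment call without urethral E14.5 replicate 3 (log2 difference 0.76, adjusted p = 0.0514) and its bladder stage call without bladder E14.5 replicates 1 or 3 or bladder E18.5 replicates 1 or 2, or with library totals (log2 differences 0.42 to 0.58, adjusted p = 0.0584 to 0.0832). Its urethral stage call was lost without urethral E14.5 replicates 2 or 3 or urethral E18.5 replicates 1, 2 or 3, or with only the compared libraries fitted (log2 differences 0.45 to 0.70, adjusted p = 0.0544 to 0.12). For Col1a1 the bladder stage call was lost without bladder E14.5 replicates 1 or 3, bladder E18.5 replicate 1 or replicate 1 of both E14.5 groups, or with library totals (log2 differences 0.40 to 0.50, adjusted p = 0.0801 to 0.117). For Col1a2 it was lost without bladder E14.5 replicates 1 or 3, urethral E14.5 replicate 3, bladder E18.5 replicates 1 or 2, urethral E18.5 replicates 1, 2 or 3 or replicate 1 of both E14.5 groups, or with library totals, only the compared libraries fitted or the replicate block (log2 differences 0.31 to 0.50, adjusted p = 0.053 to 0.142). Col5a1 lost its E14.5 call without bladder E14.5 replicate 2 or urethral E14.5 replicates 2 or 3 (log2 differences 0.53 to 0.59, adjusted p = 0.0532 to 0.0709) and its bladder stage call without bladder E14.5 replicates 1 or 3 or bladder E18.5 replicates 1 or 2, or with library totals (log2 differences 0.34 to 0.50, adjusted p = 0.0608 to 0.0999). Col5a2 lost its urethral stage call without urethral E14.5 replicates 2 or 3 or urethral E18.5 replicate 1 (log2 differences 0.58 to 0.67, adjusted p = 0.0526 to 0.0709). For Col24a1 the E14.5 call was lost without bladder E14.5 replicates 2 or 3 or urethral E14.5 replicate 2, or with only the compared libraries fitted (log2 differences -0.48 to -0.84, adjusted p = 0.062 to 0.0896), and for Col27a1 the E18.5 call without bladder E18.5 replicates 1 or 3 or urethral E18.5 replicates 1 or 2, or with no low-count filter (log2 differences -0.76 to -0.93, adjusted p = 0.0561 to 0.11).

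Type IV collagen forms the network of basement membranes. Its genes lie in pairs, head to head, and the data of the pairs were read side by side. Col4a1 (chr8:11198423-11312826) and Col4a2 (chr8:11312805-11449287) encode the chains found in nearly all basement membranes, and their starts are so close that their promoter windows share 78 bases on opposite strands. Both are shown, with the same motifs in capitals.
Col4a1 (chr8:11312777-11313076, minus strand): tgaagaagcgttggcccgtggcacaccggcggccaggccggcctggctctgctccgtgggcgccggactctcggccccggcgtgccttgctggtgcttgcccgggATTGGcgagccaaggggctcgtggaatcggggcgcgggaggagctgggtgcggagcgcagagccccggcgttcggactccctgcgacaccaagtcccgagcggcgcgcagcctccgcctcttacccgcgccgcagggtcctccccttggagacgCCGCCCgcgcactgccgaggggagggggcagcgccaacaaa
Col4a2 (chr8:11312555-11312854, plus strand): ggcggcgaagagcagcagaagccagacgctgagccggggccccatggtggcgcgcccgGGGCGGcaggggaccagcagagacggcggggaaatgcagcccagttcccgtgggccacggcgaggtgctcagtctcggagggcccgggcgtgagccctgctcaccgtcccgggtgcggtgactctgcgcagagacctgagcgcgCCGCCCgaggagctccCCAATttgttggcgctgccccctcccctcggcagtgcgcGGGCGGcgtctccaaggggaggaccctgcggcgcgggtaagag
The Col4a1 window holds 1 CCAAT box and 1 GC box, and the Col4a2 window 1 and 3.

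Col4a1 was measured at 877, 1200 and 824 CPM in bladder and 1264, 633 and 987 in urethra at E14.5, and 3394, 2612 and 1802 in bladder and 1614, 1533 and 1381 in urethra at E18.5. At E14.5 the compartments overlapped widely (log2 difference 0.01 ± 0.26, adjusted p = 0.986), while at E18.5 every bladder library was above every urethral one (log2 difference 0.79 ± 0.26, adjusted p = 0.0347). It rose in bladder (log2 difference 1.43 ± 0.27, adjusted p = 0.00097) and was not called in urethra (log2 difference 0.65 ± 0.26, adjusted p = 0.0907), where it was called without urethral E14.5 replicate 1 or replicate 1 of both E14.5 groups (log2 difference 0.90, adjusted p = 0.0309 to 0.0317). The change of the compartment difference was not called either (log2 difference 0.78 ± 0.37, adjusted p = 0.221). The E18.5 call was lost with the replicate number as a block, which pairs the E18.5 libraries (adjusted p = 0.0608). In all it was lost without bladder E18.5 replicates 1 or 2 or urethral E18.5 replicates 1, 2 or 3, or with library totals, no low-count filter or the replicate block (log2 differences 0.46 to 0.84, adjusted p = 0.0608 to 0.151).

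Col4a2 was measured at 504, 692 and 447 CPM in bladder and 762, 365 and 556 in urethra at E14.5, and 1631, 1238 and 837 in bladder and 932, 889 and 789 in urethra at E18.5. Its urethral libraries spanned the whole bladder range at E14.5, and at E18.5 bladder replicate 3 fell among the urethral ones (log2 difference 0.51 ± 0.28, adjusted p = 0.191). It rose in bladder (log2 difference 1.17 ± 0.28, adjusted p = 0.005) and stood at 0.63 in urethra (adjusted p = 0.12), where it was called without urethral E14.5 replicate 1 or replicate 1 of both E14.5 groups (log2 difference 0.92, adjusted p = 0.0323 to 0.0351). The pair moved together from library to library: per kilobase, Col4a1 was 1.54 to 1.64 times Col4a2 in bladder and 1.47 to 1.57 times in urethra at E14.5, 1.85 to 1.91 times in bladder at E18.5 and 1.53 to 1.55 times in urethra. The 3 E18.5 bladder libraries stood above all others in this ratio.

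**Figure D4:**
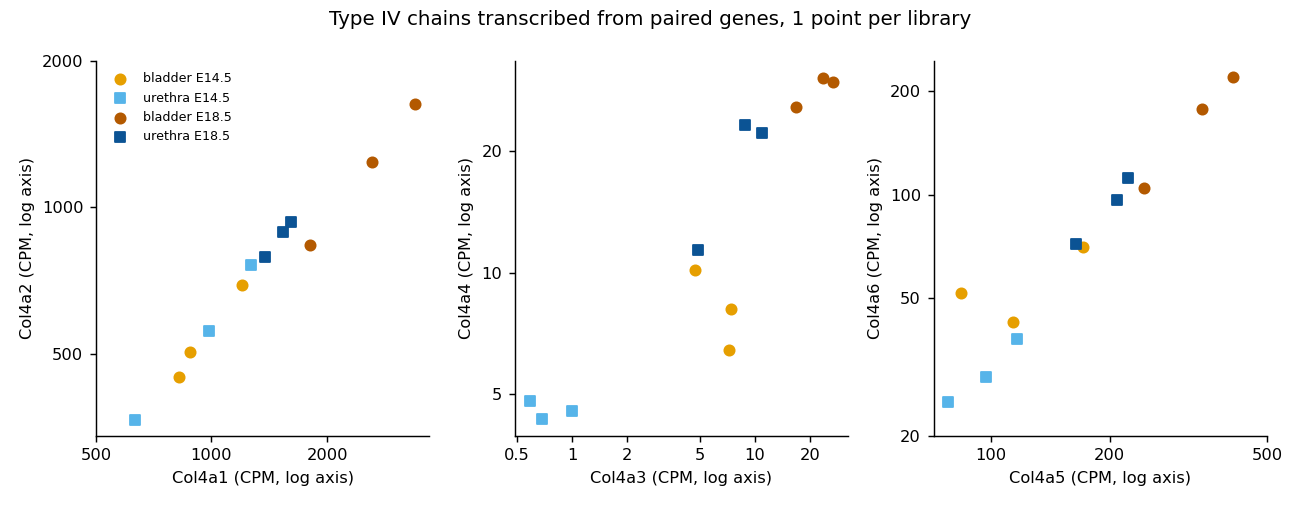
Levels (CPM, log axes) of the type IV chains of each gene pair, 1 point per library; circles are bladder, squares urethra, light colours E14.5 and dark colours E18.5. Col4a1 and Col4a2 lie along 1 line, while the E14.5 urethral libraries have 0.587 to 0.994 CPM of Col4a3 at Col4a4 levels of 4.35 to 4.81 CPM.

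Col4a3 and Col4a4 are known from the filtration membrane of the kidney, where they assemble with Col4a5. Col4a3 was measured at 7.40, 7.21 and 4.71 CPM in bladder and 0.680, 0.994 and 0.587 in urethra at E14.5, and 23.6, 16.8 and 26.8 in bladder and 8.87, 4.87 and 10.9 in urethra at E18.5. The groups did not overlap in any comparison: bladder was 8.38-fold higher at E14.5 (log2 difference 3.07 ± 0.36, adjusted p = 0.000185) and 2.72-fold higher at E18.5 (log2 difference 1.44 ± 0.31, adjusted p = 0.00312). The chain rose in bladder (log2 difference 1.80 ± 0.32, adjusted p = 0.000633) and urethra (log2 difference 3.42 ± 0.36, adjusted p = 0.000173). The narrowing of the compartment difference was itself called (log2 difference -1.63 ± 0.46, adjusted p = 0.0473), but lost without bladder E14.5 replicates 1 or 2, urethral E14.5 replicates 1 or 3, bladder E18.5 replicates 1, 2 or 3, urethral E18.5 replicates 1 or 3 or replicate 1 of both E14.5 groups (log2 differences -1.37 to -1.77, adjusted p = 0.06 to 0.116). Col4a4 was less divided between compartments, at 8.13, 6.42 and 10.2 CPM in bladder and 4.35, 4.55 and 4.81 in urethra at E14.5, and 30.3, 25.8 and 29.7 in bladder and 23.3, 11.4 and 22.1 in urethra at E18.5. It rose in both (log2 differences 1.80 and 2.05, adjusted p = 0.00015 and 0.000404) and was higher in bladder at E14.5 (log2 difference 0.85 ± 0.26, adjusted p = 0.0302). At E18.5 its libraries did not overlap and the test did not call it (log2 difference 0.59 ± 0.25, adjusted p = 0.0802; adjusted p = 0.0343 with the replicate block). Its E14.5 call was lost without bladder E14.5 replicates 1 or 3, urethral E14.5 replicates 1, 2 or 3 or replicate 1 of both E14.5 groups, or with library totals or only the compared libraries fitted (log2 differences 0.67 to 0.89, adjusted p = 0.0518 to 0.125). Per kilobase, Col4a3 was 0.130 to 0.233 times Col4a4 in urethra at E14.5 and 0.494 to 1.20 times in bladder. Of the exon bases of Col4a3, 5.65% overlap a gene on the other strand (C430014B12Rik), whose reads cannot be told apart here because the strand setting of the counting is not given in the sources used here.

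Col4a5 and Col4a6, on the X chromosome, are known from basement membranes of smooth muscle and of epithelia. Col4a5 was measured at 171, 84.2 and 114 CPM in bladder and 116, 77.8 and 97.3 in urethra at E14.5, and 411, 244 and 343 in bladder and 223, 164 and 209 in urethra at E18.5. Its E14.5 libraries overlapped (log2 difference 0.34 ± 0.26, adjusted p = 0.356) and its E18.5 libraries did not (log2 difference 0.74 ± 0.26, adjusted p = 0.0412). It rose in bladder (log2 difference 1.44 ± 0.26, adjusted p = 0.000904) and urethra (log2 difference 1.03 ± 0.26, adjusted p = 0.0141). Col4a6 was measured at 70.4, 51.8 and 42.9 CPM in bladder and 38.1, 25.05 and 29.6 in urethra at E14.5, and 219, 105 and 177 in bladder and 112, 71.9 and 96.5 in urethra at E18.5. Bladder was called higher at E14.5 (log2 difference 0.83 ± 0.28, adjusted p = 0.047) and at E18.5 (log2 difference 0.84 ± 0.27, adjusted p = 0.033), although bladder replicate 2 at E18.5 stood below urethral replicate 1. The chain rose in both compartments by 1.60 on the log2 scale (adjusted p = 0.000725 and 0.00248).

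Col4a5 lost its E18.5 call without bladder E14.5 replicate 3, urethral E14.5 replicate 3, bladder E18.5 replicates 1 or 3 or urethral E18.5 replicates 1, 2 or 3, or with median-ratio factors, library totals, no low-count filter or the stricter filter (log2 differences 0.43 to 0.83, adjusted p = 0.052 to 0.217). Its urethral stage call was lost without urethral E14.5 replicates 2 or 3 (log2 differences 0.89 to 1.03, adjusted p = 0.0527 to 0.0542). Col4a6 lost its E14.5 call without bladder E14.5 replicates 1 or 2, urethral E14.5 replicates 2 or 3, bladder E18.5 replicate 3, urethral E18.5 replicates 1 or 3 or replicate 1 of both E14.5 groups, or with median-ratio factors, library totals, no low-count filter or the stricter filter (log2 differences 0.60 to 0.88, adjusted p = 0.0506 to 0.149). Its E18.5 call was lost without bladder E18.5 replicates 1 or 3 or urethral E18.5 replicates 2 or 3, or with library totals or no low-count filter (log2 differences 0.52 to 0.86, adjusted p = 0.0771 to 0.158). With scaling by library totals alone, the E18.5 compartment differences of Col4a1, Col4a5 and Col4a6 fell to 0.46, 0.43 and 0.52 and were not called (adjusted p = 0.142, 0.217 and 0.158). In all, the 6 type IV chains summed to 1708 ± 305 CPM in bladder and 1656 ± 540 in urethra at E14.5, and 4388 ± 1252 and 2699 ± 203 at E18.5. All 6 were called higher at E18.5 in bladder (all genes 23.7%), and 4 in urethra (66.7%, all genes 13.6%). Smooth muscle markers (values above) and epithelial markers moved with the bladder rise: the 15 epithelial markers were all called higher at E18.5 in bladder (all genes 23.7%). Their part in these differences was not tested.

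The chains of type VIII collagen, a short-chain network former known from the cornea and vessel walls, had opposite patterns. Their promoter windows hold 4 GC boxes each and no match to the TATA box or CCAAT box.
Col8a1 (chr16:57754688-57754987, minus strand): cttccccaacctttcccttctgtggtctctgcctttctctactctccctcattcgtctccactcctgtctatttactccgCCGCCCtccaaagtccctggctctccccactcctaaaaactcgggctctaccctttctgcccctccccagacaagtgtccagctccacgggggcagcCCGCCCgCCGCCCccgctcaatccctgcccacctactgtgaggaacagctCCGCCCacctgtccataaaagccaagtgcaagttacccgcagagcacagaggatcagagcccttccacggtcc
Col8a2 (chr4:126286544-126286843, plus strand): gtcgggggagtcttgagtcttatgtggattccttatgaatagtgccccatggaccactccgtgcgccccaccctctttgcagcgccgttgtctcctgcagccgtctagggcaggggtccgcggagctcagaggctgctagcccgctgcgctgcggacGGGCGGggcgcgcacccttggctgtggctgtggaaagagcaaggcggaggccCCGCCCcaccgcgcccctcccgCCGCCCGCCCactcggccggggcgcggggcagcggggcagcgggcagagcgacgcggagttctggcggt
Col8a1 was measured at 29.2, 7.37 and 12.7 CPM in bladder and 144, 52.1 and 80.2 in urethra at E14.5, and 22.5, 42.8 and 27.4 in bladder and 170, 153 and 129 in urethra at E18.5. All urethral libraries stood above all bladder libraries of their stage, by 5.61-fold at E14.5 (log2 difference -2.49 ± 0.50, adjusted p = 0.00574) and 4.89-fold at E18.5 (log2 difference -2.29 ± 0.49, adjusted p = 0.00418). With stage neither bladder nor urethra was called (adjusted p = 0.148 and 0.302). Col8a2 was measured at 164, 150 and 162 CPM in bladder and 34.02, 39.5 and 27.6 in urethra at E14.5, and 98.3, 80.4 and 78.1 in bladder and 38.6, 46.4 and 47.3 in urethra at E18.5. Here the bladder libraries were the high ones, by 4.7-fold at E14.5 (log2 difference 2.23 ± 0.15, adjusted p = 1.03e-05) and 1.94-fold at E18.5 (log2 difference 0.96 ± 0.14, adjusted p = 0.000276). Col8a2 fell in bladder (log2 difference -0.89 ± 0.14, adjusted p = 0.000337) and was not called in urethra (log2 difference 0.39 ± 0.14, adjusted p = 0.0674). The change of its compartment difference was called (log2 difference -1.28 ± 0.20, adjusted p = 0.00359).

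Within a library the ratio of Col8a1 to Col8a2 per kilobase was 0.0282 to 0.102 in bladder and 0.755 to 2.42 in urethra at E14.5, and 0.131 to 0.305 and 1.56 to 2.52 at E18.5. No bladder library reached the lowest urethral one. Without bladder E14.5 replicate 1, whose Col8a1 level was the highest of its group, the E14.5 difference of Col8a1 was larger (log2 difference -3.21, adjusted p = 0.000513) and its rise in bladder was called (log2 difference 0.91 with that library and 1.63 without it, adjusted p = 0.00886). Its rise in urethra was called without replicate 1 of both E14.5 groups (log2 difference 1.19, adjusted p = 0.0104). The urethral difference of Col8a2 was called without urethral E14.5 replicate 2, or with DESeq2 (log2 differences 0.43 to 0.52, adjusted p = 0.0268 to 0.0497).

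Type VI collagen forms beaded microfibrils that link cells to the surrounding matrix; Col6a1, Col6a2 and Col6a3 are its common chains. Col6a1 was measured at 862, 942 and 659 CPM in bladder and 689, 315 and 305 in urethra at E14.5, and 1851, 1676 and 1375 in bladder and 1293, 1150 and 1184 in urethra at E18.5. Bladder was called higher at E14.5 (log2 difference 0.91 ± 0.27, adjusted p = 0.0306), though urethral replicate 1 lay inside the bladder range, and not called at E18.5 (log2 difference 0.43 ± 0.27, adjusted p = 0.252). It rose in bladder (log2 difference 0.99 ± 0.27, adjusted p = 0.011) and urethra (log2 difference 1.47 ± 0.28, adjusted p = 0.00337). Col6a2 was measured at 889, 971 and 770 CPM in bladder and 854, 373 and 448 in urethra at E14.5, and 1731, 1709 and 1319 in bladder and 1333, 1256 and 1225 in urethra at E18.5. Its compartments overlapped at both stages (adjusted p = 0.0747 and 0.363). At E14.5 the higher level in bladder was called without urethral E14.5 replicate 1 or replicate 1 of both E14.5 groups, or with the replicate block (log2 differences 0.74 to 1.096, adjusted p = 0.000994 to 0.0449). Its level rose in bladder (log2 difference 0.86 ± 0.25, adjusted p = 0.0143) and urethra (log2 difference 1.19 ± 0.25, adjusted p = 0.00591).

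Col6a3 was measured at 580, 606 and 385 CPM in bladder and 427, 264 and 368 in urethra at E14.5, and 2150, 1791 and 1182 in bladder and 827, 879 and 696 in urethra at E18.5. At E14.5 bladder replicate 3 fell between the urethral libraries (log2 difference 0.57 ± 0.24, adjusted p = 0.103), and at E18.5 all bladder libraries were the higher ones (log2 difference 1.09 ± 0.24, adjusted p = 0.00387). It rose 3.26-fold in bladder (log2 difference 1.71 ± 0.25, adjusted p = 0.000181) and 2.27-fold in urethra (log2 difference 1.18 ± 0.24, adjusted p = 0.00518). Per kilobase, Col6a3 was 0.624 to 0.865 times Col6a2 in bladder at E18.5, and 0.348 to 0.454, 0.348 to 0.571 and 0.396 to 0.487 times in bladder and urethra at E14.5 and urethra at E18.5. The E18.5 bladder libraries did not overlap any other group in this ratio.

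Col6a4, Col6a5 and Col6a6 encode longer type VI chains that resemble Col6a3, and they lie next to each other on chromosome 9. Col6a4 (chr9:105989454-106096783) was measured at 2.92, 0.455 and 0.735 CPM in bladder and 36.6, 23.9 and 41.4 in urethra at E14.5, and 1.64, 4.34 and 1.79 in bladder and 21.7, 14.04 and 18.6 in urethra at E18.5. It was a chain of the urethra, 24.96-fold higher there at E14.5 (log2 difference -4.64 ± 0.61, adjusted p = 0.000512) and 7.15-fold higher at E18.5 (log2 difference -2.84 ± 0.56, adjusted p = 0.00226). The compartments did not overlap at either stage, and there was no call with stage (adjusted p = 0.237 and 0.222). Without bladder E14.5 replicate 1 its E14.5 difference was larger (log2 difference -5.84, adjusted p = 3.53e-05). The rise in bladder was then called too (log2 difference 0.90 with that library and 2.09 without it, adjusted p = 0.00538), as was the change of the compartment difference (log2 difference 1.80 and 2.99, adjusted p = 0.00717). Of its exon bases, 3.39% overlap genes on the other strand (Gm36993 and Gm47575).

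Col6a5 (chr9:105856078-105960643) was measured at 8.18, 0.414 and 0.389 CPM in bladder and 0.302, 0.261 and 0 in urethra at E14.5, and 19.98, 35.1 and 15.7 in bladder and 1.32, 2.01 and 2.66 in urethra at E18.5. At E14.5 bladder replicate 1 held 179 counts and the other bladder libraries 10 and 9, against 8, 10 and 0 in urethra. The E14.5 call (log2 difference 3.92 ± 1.23, adjusted p = 0.0399) therefore rests on that library, without which it was lost (log2 difference 1.02, adjusted p = 0.363). In all it was lost without bladder E14.5 replicate 1, urethral E14.5 replicates 1, 2 or 3, bladder E18.5 replicates 1, 2 or 3, urethral E18.5 replicates 1, 2 or 3 or replicate 1 of both E14.5 groups, or with no low-count filter (log2 differences 1.02 to 4.30, adjusted p = 0.051 to 0.363). At E18.5 all 3 bladder libraries were above the urethral ones (log2 difference 3.56 ± 1.01, adjusted p = 0.0183), a call lost without bladder E18.5 replicate 2 or urethral E18.5 replicates 1, 2 or 3, or with no low-count filter (log2 differences 3.16 to 3.83, adjusted p = 0.0507 to 0.0771). The rise in bladder (log2 difference 2.98 ± 0.99, adjusted p = 0.0296) was lost without bladder E14.5 replicates 2 or 3 or bladder E18.5 replicates 1 or 2, or with no low-count filter or only the compared libraries fitted (log2 differences 2.46 to 3.09, adjusted p = 0.0586 to 0.092) and larger without bladder E14.5 replicate 1 (log2 difference 5.87, adjusted p = 3.81e-05). The urethral difference was not called (log2 difference 3.34 ± 1.23, adjusted p = 0.0711), but was called without bladder E14.5 replicates 1, 2 or 3 or replicate 1 of both E14.5 groups, or with DESeq2 or only the compared libraries fitted (log2 differences 3.33 to 3.70, adjusted p = 0.00194 to 0.0487).

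Col6a6 (chr9:105687809-105828160) was measured at 117, 11.2 and 24.5 CPM in bladder and 13.9, 11.9 and 9.80 in urethra at E14.5, and 126, 142 and 111 in bladder and 56.9, 94.5 and 79.5 in urethra at E18.5. Again bladder E14.5 replicate 1 stood far above the others, and the E14.5 call (log2 difference 2.10 ± 0.66, adjusted p = 0.0408) was lost without it (log2 difference 0.57, adjusted p = 0.176). In all it was lost without bladder E14.5 replicate 1, urethral E14.5 replicates 1, 2 or 3, bladder E18.5 replicates 1, 2 or 3, urethral E18.5 replicates 1, 2 or 3 or replicate 1 of both E14.5 groups, or with no low-count filter, only the compared libraries fitted or the replicate block (log2 differences 0.57 to 2.22, adjusted p = 0.0572 to 0.176). In urethra the chain rose 6.48-fold with stage (log2 difference 2.70 ± 0.67, adjusted p = 0.0157), a call lost without urethral E14.5 replicates 2 or 3 or urethral E18.5 replicate 2, or with no low-count filter (log2 differences 2.52 to 2.70, adjusted p = 0.0512 to 0.0719). In bladder it was not called with stage (log2 difference 1.32 ± 0.64, adjusted p = 0.114), whereas without bladder E14.5 replicate 1 the rise was larger and called (log2 difference 2.84, adjusted p = 3.64e-05). The same bladder library had the highest mesothelial sum of E14.5 bladder (5 genes, 110 to 478 CPM over the 3 libraries). It also had the highest epithelial, smooth muscle, skeletal muscle, neuron, glial and bone marker sums of that group, so mesothelium is not singled out. The part of any of these cell types was not tested.

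Col7a1 and Col28a1 complete this class. Col7a1, the chain of the anchoring fibrils that tie epithelial basement membranes to the tissue beneath, was measured at 14.1, 17.02 and 7.17 CPM in bladder and 28.3, 35.3 and 11.2 in urethra at E14.5, and 68.2, 50.1 and 86.7 in bladder and 188, 145 and 167 in urethra at E18.5. It rose 5.36-fold in bladder (log2 difference 2.42 ± 0.42, adjusted p = 0.000818) and 6.68-fold in urethra (log2 difference 2.74 ± 0.41, adjusted p = 0.00146). At E18.5 all urethral libraries stood above all bladder ones (log2 difference -1.28 ± 0.39, adjusted p = 0.0258), while the E14.5 libraries overlapped (log2 difference -0.97 ± 0.40, adjusted p = 0.104), a difference called without urethral E14.5 replicate 3, or with DESeq2 or the replicate block (log2 differences -0.91 to -1.32, adjusted p = 0.00368 to 0.0437). Epithelial markers were higher in bladder at E18.5 (sums above), with 7 of 15 called higher there (46.7%, all genes 18.52%) and 0 higher in urethra (all genes 16.2%). Their part in Col7a1 was not tested. Col28a1, a chain known from Schwann cells of peripheral nerve, was measured at 0.731, 0.248 and 0.0864 CPM in bladder and 2.08, 0.131 and 0.404 in urethra at E14.5, and 1.27, 2.30 and 2.30 in bladder and 4.39, 13.4 and 9.64 in urethra at E18.5. Its level rose in bladder (log2 difference 2.46 ± 0.92, adjusted p = 0.0452) and urethra (log2 difference 3.42 ± 0.84, adjusted p = 0.0128). At E18.5 it was higher in urethra (log2 difference -2.22 ± 0.78, adjusted p = 0.0459), where glial markers (6 genes) summed to 190 to 277 CPM against 149 to 185 in bladder. Of these markers, 5 were called higher in urethra at E18.5 (83.3%, all genes 16.2%). The part of glia was not tested.

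Col7a1 lost its E18.5 call without bladder E18.5 replicates 1 or 2 or urethral E18.5 replicates 1 or 3, or with no low-count filter (log2 differences -1.103 to -1.30, adjusted p = 0.0603 to 0.0957). Col28a1 lost its E18.5 call without bladder E14.5 replicate 2, urethral E14.5 replicate 3, bladder E18.5 replicates 1, 2 or 3 or urethral E18.5 replicates 2 or 3, or with DESeq2 or no low-count filter (log2 differences -1.84 to -2.36, adjusted p = 0.0504 to 0.147). Its bladder stage call was lost without bladder E14.5 replicates 2 or 3, bladder E18.5 replicates 1, 2 or 3 or urethral E18.5 replicates 2 or 3, or with library totals, no low-count filter or the replicate block (log2 differences 2.00 to 2.70, adjusted p = 0.0517 to 0.139), and its urethral one without urethral E14.5 replicate 3 (log2 difference 3.09, adjusted p = 0.0612). Without urethral E14.5 replicate 1 the urethral rise was larger (log2 difference 5.14, adjusted p = 0.00112). Without bladder E14.5 replicate 1 the bladder rise was larger too (log2 difference 3.51, adjusted p = 0.0219). Col6a1 lost its E14.5 call without bladder E14.5 replicates 1 or 2 or urethral E14.5 replicates 2 or 3, or with no low-count filter or only the compared libraries fitted (log2 differences 0.71 to 0.91, adjusted p = 0.0608 to 0.106) and its bladder stage call without bladder E14.5 replicate 3 (log2 difference 0.86, adjusted p = 0.0515), and Col6a2 its bladder stage call without bladder E14.5 replicate 3 (log2 difference 0.77, adjusted p = 0.0616).

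The multiplexins Col15a1 and Col18a1 bridge basement membranes and the matrix outside them, and a fragment of the Col18a1 chain is known as endostatin. Col15a1 was measured at 92.3, 93.1 and 58.2 CPM in bladder and 122, 62.5 and 93.4 in urethra at E14.5, and 645, 618 and 371 in bladder and 242, 207 and 182 in urethra at E18.5. The compartments overlapped at E14.5 (log2 difference -0.19 ± 0.27, adjusted p = 0.643), and at E18.5 the lowest bladder library was above the highest urethral one (log2 difference 1.37 ± 0.27, adjusted p = 0.00207). It rose 6.71-fold in bladder (log2 difference 2.75 ± 0.29, adjusted p = 2.72e-05) and 2.27-fold in urethra (log2 difference 1.19 ± 0.27, adjusted p = 0.00936). It was the 1 chain whose compartment difference was called as shifting toward bladder (log2 difference 1.56 ± 0.38, adjusted p = 0.0274). That call was lost without bladder E14.5 replicate 3, urethral E14.5 replicates 1 or 3, bladder E18.5 replicates 1 or 2 or urethral E18.5 replicates 2 or 3, or with no low-count filter (log2 differences 1.31 to 1.55, adjusted p = 0.0526 to 0.0741).

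Col18a1 was measured at 290, 241 and 234 CPM in bladder and 216, 147 and 225 in urethra at E14.5, and 622, 456 and 581 in bladder and 233, 241 and 250 in urethra at E18.5. It rose in bladder (log2 difference 1.12 ± 0.17, adjusted p = 0.000244), leaving all bladder libraries above the urethral ones at E18.5 (log2 difference 1.20 ± 0.17, adjusted p = 0.000194). In urethra it was not called (log2 difference 0.30 ± 0.17, adjusted p = 0.22), nor was the change of its compartment difference (log2 difference 0.82 ± 0.24, adjusted p = 0.0527), which was called without bladder E14.5 replicate 1, urethral E14.5 replicate 2 or bladder E18.5 replicate 2, or with DESeq2 or no low-count filter (log2 differences 0.79 to 0.99, adjusted p = 0.0114 to 0.0372). Of 8 endothelial markers, 3 were called higher in bladder (37.5%, all genes 12.4%) and 0 higher in urethra (all genes 12.5%) at E14.5. At E18.5, 0 were higher in bladder (all genes 18.52%) and 3 higher in urethra (37.5%, all genes 16.2%). Their E18.5 sums were 337 to 440 CPM in bladder and 539 to 620 in urethra. The compartment difference shifted toward urethra for 4 (50%, all genes 4.05%). The part of endothelium in the Col15a1 and Col18a1 levels was not tested.

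The FACIT chains were divided. Col14a1, Col12a1 and Col16a1 were the most abundant per kilobase. Col12a1 (chr9:79598991-79718831), which coats fibrils of dense and tensioned connective tissue, was measured at 456, 390 and 424 CPM in bladder and 432, 394 and 407 in urethra at E14.5, and 638, 545 and 400 in bladder and 1429, 1144 and 868 in urethra at E18.5. The E14.5 compartments were nearly level (log2 difference 0.04 ± 0.19, adjusted p = 0.892), whereas at E18.5 the lowest urethral library was above the highest bladder library (log2 difference -1.12 ± 0.19, adjusted p = 0.000688). It rose 2.79-fold in urethra (log2 difference 1.48 ± 0.19, adjusted p = 0.00047) and was not called in bladder (log2 difference 0.32 ± 0.19, adjusted p = 0.189). The change of the compartment difference was called (log2 difference -1.16 ± 0.27, adjusted p = 0.0198).

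Col14a1, a related coat of fibrils, ran the other way, at 535, 661 and 522 CPM in bladder and 276, 224 and 202 in urethra at E14.5, and 1065, 825 and 901 in bladder and 723, 481 and 642 in urethra at E18.5. Bladder libraries stood above urethral ones at E14.5 (log2 difference 1.29 ± 0.18, adjusted p = 0.000474) and E18.5 (log2 difference 0.60 ± 0.18, adjusted p = 0.0191). The chain rose in both compartments (log2 differences 0.70 and 1.39, adjusted p = 0.00633 and 0.00044). Its E18.5 call was lost without bladder E18.5 replicate 1 or urethral E18.5 replicate 2, or with library totals (log2 differences 0.28 to 0.49, adjusted p = 0.0725 to 0.212). The ratio of Col12a1 to Col14a1 per kilobase was 0.272 to 0.393 in bladder and 0.720 to 0.927 in urethra at E14.5, and 0.204 to 0.305 and 0.623 to 1.09 at E18.5. The compartments did not overlap at either stage. Col16a1 was measured at 338, 532 and 334 CPM in bladder and 230, 204 and 148 in urethra at E14.5, and 632, 427 and 473 in bladder and 432, 320 and 393 in urethra at E18.5. Bladder was higher at E14.5 (log2 difference 1.05 ± 0.22, adjusted p = 0.00591). At E18.5 the libraries overlapped (log2 difference 0.42 ± 0.22, adjusted p = 0.17) after a rise in urethra (log2 difference 0.98 ± 0.22, adjusted p = 0.00867). The difference with stage in bladder was called without bladder E14.5 replicate 2 (log2 difference 0.60, adjusted p = 0.0441).

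The remaining FACIT chains were low. Col19a1, a chain of muscle and basement membrane zones, was measured at 1.92, 1.37 and 1.73 CPM in bladder and 1.13, 0.628 and 0.220 in urethra at E14.5, and 11.7, 5.09 and 4.03 in bladder and 1.93, 1.72 and 1.78 in urethra at E18.5. It rose in bladder (log2 difference 2.05 ± 0.49, adjusted p = 0.00452), most in replicate 1, and was then higher there than in urethra (log2 difference 1.93 ± 0.48, adjusted p = 0.00734); without that library the rise was smaller (log2 difference 1.44, adjusted p = 0.0283), as was the E18.5 difference (log2 difference 1.33, adjusted p = 0.048). The urethral difference with stage (log2 difference 1.46, adjusted p = 0.0556) was called without urethral E14.5 replicate 1, bladder E18.5 replicate 1 or replicate 1 of both E14.5 groups, or with DESeq2, no low-count filter or the replicate block (log2 differences 1.45 to 2.04, adjusted p = 0.0175 to 0.0422). The E14.5 difference (log2 difference 1.34, adjusted p = 0.077) was called without urethral E14.5 replicate 1 or replicate 1 of both E14.5 groups, or with DESeq2 (log2 differences 1.34 to 1.92, adjusted p = 0.0269 to 0.0462). Col20a1 was measured at 3.06, 1.95 and 0.908 CPM in bladder and 9.37, 8.13 and 6.38 in urethra at E14.5, and 7.28, 7.45 and 9.72 in bladder and 29.5, 24.2 and 20.8 in urethra at E18.5. Urethra was higher at E14.5 (log2 difference -2.02 ± 0.34, adjusted p = 0.00162) and E18.5 (log2 difference -1.61 ± 0.32, adjusted p = 0.00192) without overlap. The chain rose in both compartments (log2 differences 2.05 and 1.64, adjusted p = 0.000458 and 0.00387).

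Col22a1, a chain of tissue junctions such as that of muscle and tendon, was measured at 1.28, 7.08 and 4.19 CPM in bladder and 2.00, 1.28 and 2.71 in urethra at E14.5, and 0.299, 0.429 and 0.576 in bladder and 2.71, 3.23 and 3.77 in urethra at E18.5. Bladder at E18.5 stood below every other group, with 8, 8 and 18 counts. It fell in bladder (log2 difference -3.25 ± 0.57, adjusted p = 0.000616) and was lower there than in urethra at E18.5 (log2 difference -2.87 ± 0.56, adjusted p = 0.00171). The change of the compartment difference was called (log2 difference -3.95 ± 0.75, adjusted p = 0.00813). Without bladder E14.5 replicate 2, the highest library, that change was smaller (log2 difference -3.33, adjusted p = 0.0172), as was the fall in bladder (log2 difference -2.63, adjusted p = 0.0025).

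Among the transmembrane chains, Col13a1 (chr10:61838236-61979108), known from the neuromuscular junction and other adhesion sites, had the largest change of the compartment difference. It was measured at 30.5, 61.04 and 42.2 CPM in bladder and 50.8, 30.7 and 40.03 in urethra at E14.5, and 7.62, 8.52 and 7.51 in bladder and 60.2, 47.8 and 48.3 in urethra at E18.5. The E14.5 compartments overlapped (log2 difference 0.14 ± 0.23, adjusted p = 0.693), and at E18.5 the bladder libraries were 6.62-fold lower than the urethral ones (log2 difference -2.73 ± 0.25, adjusted p = 1.07e-05). Col13a1 fell 5.66-fold in bladder (log2 difference -2.50 ± 0.25, adjusted p = 1.73e-05) and was not called in urethra (log2 difference 0.36 ± 0.23, adjusted p = 0.276), where a rise was called without replicate 1 of both E14.5 groups (log2 difference 0.56, adjusted p = 0.0431). The change of its compartment difference was called (log2 difference -2.87 ± 0.34, adjusted p = 0.00114).

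Skeletal muscle markers went with the urethra in part. Of the 9 genes, 5 were called higher in urethra at E18.5 (55.6%, all genes 16.2%) and 3 higher in bladder (33.3%, all genes 18.52%). The myogenic regulator Myog stood at 122 ± 23.3 CPM in urethra and 0.263 ± 0.291 CPM in bladder, while Acta1, a sarcomeric actin, stood at 179 ± 13.03 CPM and 3164 ± 722 CPM. In urethra all 9 markers rose with stage (all genes 13.6%), and Col13a1 and Col22a1 were not called there. The part of skeletal muscle cells in the Col13a1 and Col22a1 differences was not tested.

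Col17a1, the hemidesmosome collagen of basal epithelial cells, was measured at 6.39, 3.35 and 2.33 CPM in bladder and 40.4, 10.3 and 14.8 in urethra at E14.5, and 132, 52.1 and 112 in bladder and 248, 274 and 215 in urethra at E18.5. It rose 24.5-fold in bladder (log2 difference 4.62 ± 0.60, adjusted p = 0.000146) and 11.3-fold in urethra (log2 difference 3.50 ± 0.55, adjusted p = 0.00175). At E14.5 urethra was higher (log2 difference -2.44 ± 0.56, adjusted p = 0.0107). At E18.5 its libraries did not overlap and the test did not call it (log2 difference -1.32 ± 0.50, adjusted p = 0.0641; adjusted p = 0.00679 with the replicate block). It was called in 7 of 20 alternatives, without bladder E14.5 replicate 1, urethral E14.5 replicates 1 or 2 or replicate 1 of both E14.5 groups, or with library totals, only the compared libraries fitted or the replicate block (log2 differences -1.32 to -1.63, adjusted p = 0.00285 to 0.0469). Without urethral E14.5 replicate 1 the E14.5 difference was smaller (log2 difference -1.64, adjusted p = 0.0273) and the urethral rise larger (log2 difference 4.29, adjusted p = 0.000434). The basal keratin Krt5 was at 16.2 ± 22.96 CPM in bladder and 278 ± 194 CPM in urethra at E14.5, and at 1147 ± 353 CPM and 819 ± 145 CPM at E18.5. Krt5 does not stand for the whole list of 15 epithelial markers. At E14.5, 2 of them were higher in bladder (13.3%, all genes 12.4%) and 4 higher in urethra (26.7%, all genes 12.5%). The other 9 were not called, and the list median was 0.13 (E18.5 counts above). The part of attached epithelium in the Col17a1 levels was not tested.

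Col23a1 was measured at 43.9, 30.7 and 26.8 CPM in bladder and 193, 139 and 165 in urethra at E14.5, and 17.2, 14.1 and 14.7 in bladder and 101, 43.8 and 97.3 in urethra at E18.5. Urethra was higher at E14.5 (log2 difference -2.29 ± 0.29, adjusted p = 0.000376) and E18.5 (log2 difference -2.39 ± 0.30, adjusted p = 9.67e-05). The chain fell in both compartments (log2 differences -1.14 and -1.04, adjusted p = 0.00719 and 0.0199), the urethral fall being lost without urethral E14.5 replicates 1 or 3, or with no low-count filter (log2 differences -0.91 to -1.04, adjusted p = 0.0559 to 0.0664). Col25a1, known for its part in motor nerve contact with muscle, was measured at 78.7, 153 and 119 CPM in bladder and 74.98, 111 and 119 in urethra at E14.5, and 113, 67.6 and 62.4 in bladder and 57.8, 42.7 and 48.1 in urethra at E18.5. It fell in urethra (log2 difference -1.04 ± 0.28, adjusted p = 0.02), a call lost without urethral E14.5 replicates 2 or 3 or urethral E18.5 replicates 2 or 3, or with no low-count filter (log2 differences -0.91 to -1.03, adjusted p = 0.0581 to 0.0801). Its compartments overlapped at E14.5 (log2 difference 0.20 ± 0.28, adjusted p = 0.623), and at E18.5 the bladder libraries were above the urethral ones without a call (log2 difference 0.71 ± 0.28, adjusted p = 0.0694; adjusted p = 0.00668 with the replicate block). The bladder difference of Col25a1 with stage (log2 difference -0.53, adjusted p = 0.14) was called without bladder E14.5 replicate 1, bladder E18.5 replicate 1 or replicate 1 of both E14.5 groups, or with library totals (log2 differences -0.71 to -0.85, adjusted p = 0.0228 to 0.0403).

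Col26a1 (chr5:136741759-136883209), which belongs to none of these classes, was one of the most divided chains. It was measured at 144, 48.1 and 91.4 CPM in bladder and 415, 200 and 284 in urethra at E14.5, and 17.3, 24.5 and 18.6 in bladder and 346, 280 and 294 in urethra at E18.5. Urethra exceeded bladder 3.17-fold at E14.5 (log2 difference -1.67 ± 0.36, adjusted p = 0.00701) and 15.3-fold at E18.5 (log2 difference -3.93 ± 0.39, adjusted p = 2.95e-05), with no overlap. The urethral level was not called with stage (log2 difference 0.03 ± 0.35, adjusted p = 0.955) while the bladder level fell (log2 difference -2.23 ± 0.37, adjusted p = 0.000565). The change of its compartment difference was called (log2 difference -2.27 ± 0.50, adjusted p = 0.0186). That change was lost without urethral E14.5 replicate 3 or bladder E18.5 replicate 1, or with no low-count filter (log2 differences -2.17 to -2.27, adjusted p = 0.0509 to 0.0634).

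**Figure D5:**
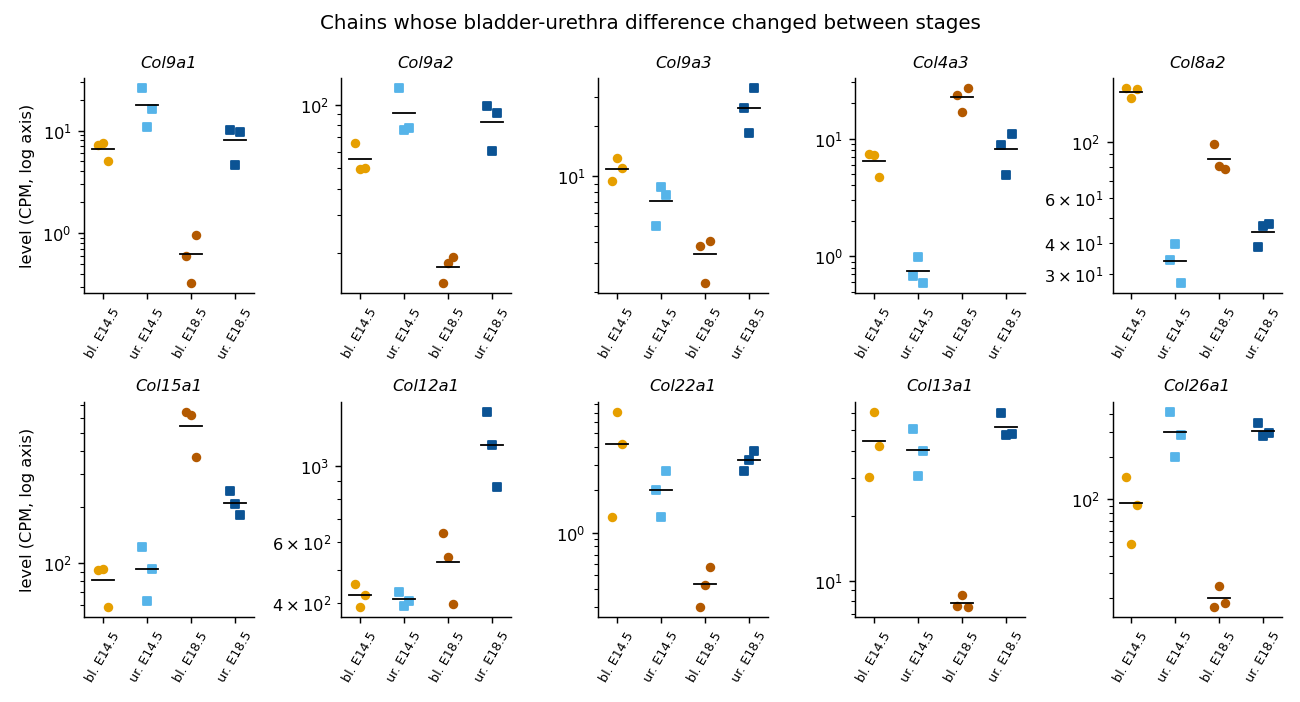
Levels (CPM, log axes) of the 10 chains whose bladder-urethra difference changed between stages, 1 point per library; circles are bladder (bl.), squares urethra (ur.), bars are means of 3 libraries. Bladder at E18.5 is the lowest group for Col9a1, Col9a2, Col9a3, Col22a1, Col13a1 and Col26a1, and the highest for Col4a3 and Col15a1.

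The chains best known from cartilage, where type II fibrils are nucleated by type XI and coated by type IX, were mostly urethral and mostly fell in bladder. Col2a1 (chr15:97975602-98004695), the type II chain, was measured at 8.54, 5.84 and 2.68 CPM in bladder and 26.5, 50.3 and 57.9 in urethra at E14.5, and 0.149, 0.322 and 0.128 in bladder and 10.4, 3.93 and 11.9 in urethra at E18.5. In E18.5 bladder these levels were 4, 6 and 4 counts. Urethra was higher without overlap at E14.5 (log2 difference -2.98 ± 0.49, adjusted p = 0.00164) and at E18.5 (log2 difference -5.53 ± 0.67, adjusted p = 8.74e-05). The chain fell in bladder (log2 difference -4.90 ± 0.67, adjusted p = 0.000161) and urethra (log2 difference -2.35 ± 0.47, adjusted p = 0.00518). Without replicate 1 of both E14.5 compartments the E14.5 difference was larger (log2 difference -3.68, adjusted p = 0.000385).

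The 3 type IX chains were alike in E18.5 bladder, where each was at its lowest. Col9a1 was measured at 7.17, 7.62 and 5.06 CPM in bladder and 25.9, 10.9 and 16.1 in urethra at E14.5, and 0.598, 0.322 and 0.959 in bladder and 10.1, 4.59 and 9.61 in urethra at E18.5. Urethra was the higher compartment at E14.5 (log2 difference -1.41 ± 0.39, adjusted p = 0.0209) and E18.5 (log2 difference -3.63 ± 0.46, adjusted p = 8.41e-05). Col9a1 fell in bladder (log2 difference -3.34 ± 0.46, adjusted p = 0.00012), and in urethra was not called (log2 difference -1.12 ± 0.39, adjusted p = 0.0518), though it was called without urethral E14.5 replicate 2 or bladder E18.5 replicates 2 or 3, or with DESeq2 or the replicate block (log2 differences -1.09 to -1.37, adjusted p = 0.0269 to 0.0482). Col9a2 was measured at 65.6, 49.7 and 49.96 CPM in bladder and 119, 75.9 and 77.3 in urethra at E14.5, and 14.3, 17.95 and 19.03 in bladder and 98.1, 60.1 and 90.98 in urethra at E18.5. It too was higher in urethra at E14.5 (log2 difference -0.72 ± 0.22, adjusted p = 0.0307) and E18.5 (log2 difference -2.28 ± 0.23, adjusted p = 1.88e-05). Col9a2 fell in bladder (log2 difference -1.69 ± 0.23, adjusted p = 0.000106), with overlapping stages in urethra (log2 difference -0.13 ± 0.22, adjusted p = 0.706).

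Col9a3 was measured at 9.27, 12.8 and 11.2 CPM in bladder and 5.03, 8.58 and 7.63 in urethra at E14.5, and 3.81, 2.25 and 4.03 in bladder and 25.5, 18.1 and 33.8 in urethra at E18.5. At E14.5 all bladder libraries were above all urethral ones, without a call (log2 difference 0.64 ± 0.29, adjusted p = 0.118), and at E18.5 the order was reversed (log2 difference -2.93 ± 0.31, adjusted p = 2.34e-05). Col9a3 fell in bladder (log2 difference -1.71 ± 0.30, adjusted p = 0.000595) and rose in urethra (log2 difference 1.86 ± 0.29, adjusted p = 0.00118), the 1 chain called in opposite directions. Of its exon bases, 6.07% overlap Tcfl5 on the other strand. The change of the compartment difference was called for Col9a1 (log2 difference of differences -2.22 ± 0.59, adjusted p = 0.0355), Col9a2 (-1.56 ± 0.31, adjusted p = 0.00999) and Col9a3 (-3.57 ± 0.42, adjusted p = 0.00106).

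Of the type XI chains, Col11a1 was measured at 86.4, 155 and 86.1 CPM in bladder and 88.1, 77.5 and 115 in urethra at E14.5, and 46.8, 41.5 and 43.6 in bladder and 59.9, 43.6 and 54.4 in urethra at E18.5. The compartments overlapped at both stages (adjusted p = 0.497 and 0.416). Col11a1 fell in bladder (log2 difference -1.31 ± 0.23, adjusted p = 0.000599) and urethra (log2 difference -0.83 ± 0.22, adjusted p = 0.0189). Col11a2 rose in bladder, from 3.79, 3.11 and 2.07 to 9.37, 10.3 and 10.1 CPM (log2 difference 1.73 ± 0.41, adjusted p = 0.00429). It was higher in urethra at E14.5 (log2 difference -1.26 ± 0.41, adjusted p = 0.0392), where replicate 2 stood at 13.2 CPM and the others at 4.31 and 3.89. Without that urethral library the E14.5 difference of Col11a2 fell to -0.46 (adjusted p = 0.207), and its rise in urethra went from 0.96 (adjusted p = 0.0929) to 1.77 (adjusted p = 0.00184). Col10a1, the chain of hypertrophic cartilage, had 23, 2 and 0 counts in bladder and 10, 2 and 0 in urethra at E14.5, 0 in all 3 bladder libraries at E18.5 and 2, 4 and 2 in urethra. In 10 of the 12 libraries there were 4 counts or fewer.

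Of 10 cartilage markers other than these chains, Acan, Comp, Cnmd and Snorc were low. Acan, the main cartilage proteoglycan, reached a group mean of 1.73 ± 1.63 CPM in E18.5 urethra, Comp 0.503 ± 0.244 CPM and Cnmd 0.337 ± 0.0386 CPM, and Snorc had counts in no group but that one. Sox9, which many tissues express, was at 8.05 ± 3.98 CPM in bladder and 25.6 ± 3.01 CPM in urethra at E14.5, and at 17.5 ± 7.06 CPM and 48.7 ± 5.42 CPM at E18.5. The 10 markers summed to 51.4 to 59.6 CPM in bladder and 77.1 to 96.6 in urethra at E14.5, and 55.3 to 68.7 and 89.998 to 118 at E18.5. The rest of each sum came from Sox5, Sox6, Matn1, Matn3 and Hapln1, which complete the list. The bladder sums of the stages overlapped. The 7 cartilage chains together stood at 157 to 234 CPM in bladder at E14.5 and at 72.7 to 77.8 CPM at E18.5. Of the 6 markers that passed the low-count filter, 2 rose with stage in bladder (33.3%, all genes 23.7%) and 1 fell (16.7%, all genes 22%). Between compartments, 2 were higher in urethra at E14.5 (33.3%, all genes 12.5%) and 2 at E18.5 (33.3%, all genes 16.2%). At either stage 0 were higher in bladder (all genes 12.4% and 18.52%). The part of cartilage cells in the levels of these chains was not tested.

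Col9a1 lost its E14.5 call without bladder E14.5 replicate 3, urethral E14.5 replicate 1 or replicate 1 of both E14.5 groups (log2 differences -1.03 to -1.25, adjusted p = 0.0766 to 0.0866) and the call on its change without bladder E14.5 replicate 2, urethral E14.5 replicates 2 or 3, bladder E18.5 replicates 1 or 2 or urethral E18.5 replicates 1 or 3 (log2 differences -1.95 to -2.16, adjusted p = 0.0571 to 0.0876). Col9a2 lost its E14.5 call without bladder E14.5 replicates 2 or 3 or urethral E14.5 replicate 1 (log2 differences -0.47 to -0.65, adjusted p = 0.0991 to 0.111). Col11a1 lost its urethral stage call without urethral E14.5 replicate 3 or urethral E18.5 replicates 2 or 3 (log2 differences -0.65 to -0.85, adjusted p = 0.0551 to 0.0886), and Col11a2 its E14.5 call without bladder E14.5 replicates 2 or 3, urethral E14.5 replicate 2, bladder E18.5 replicates 2 or 3 or urethral E18.5 replicates 1, 2 or 3, or with only the compared libraries fitted (log2 differences -0.46 to -1.30, adjusted p = 0.0521 to 0.207).

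Genes that make, secrete, trim and bind collagen were followed in 4 lists. Of 18 genes for hydroxylation and folding of chains in the endoplasmic reticulum, 12 were higher in bladder (66.7%, all genes 12.4%) and 2 higher in urethra (11.1%, all genes 12.5%) at E14.5, with a list median of 0.76. At E18.5, 6 were higher in bladder (33.3%, all genes 18.52%) and 3 higher in urethra (16.7%, all genes 16.2%), with a median of 0.33. With stage 3 rose (16.7%, all genes 23.7%) and 8 fell (44.4%, all genes 22%) in bladder, and 3 rose (16.7%, all genes 13.6%) and 0 fell (all genes 10.8%) in urethra. The compartment difference shifted toward bladder for 1 (5.56%, all genes 4.66%) and toward urethra for 5 (27.8%, all genes 4.05%). The counts higher in urethra and the rise in urethra were thus near the share of all genes. The largest called differences were at E18.5. Tmem38b, a cation channel of the endoplasmic reticulum, stood higher in bladder (log2 difference 1.89 ± 0.20, adjusted p = 2.53e-05). P3h2, which hydroxylates prolines of basement membrane collagen, and Colgalt2, a collagen galactosyltransferase, were higher in urethra (log2 difference -1.43 ± 0.22, adjusted p = 0.000345 and log2 difference -1.36 ± 0.34, adjusted p = 0.00702). P4ha3, a prolyl 4-hydroxylase subunit, was called in no comparison. Serpinh1, the collagen chaperone, named here after its values were seen, was measured at 1595, 2005 and 2178 CPM in bladder and 1106, 910 and 980 in urethra at E14.5, and 1314, 1510 and 1103 in bladder and 1076, 968 and 916 in urethra at E18.5. Bladder was higher at E14.5 (log2 difference 0.95 ± 0.16, adjusted p = 0.00133) and fell there with stage (log2 difference -0.56 ± 0.16, adjusted p = 0.0109), while Col1a1, Col1a2 and Col3a1 rose.

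Of 8 secretion genes, 5 were higher in bladder at E14.5 (62.5%, all genes 12.4%) and 2 at E18.5 (25%, all genes 18.52%), with 0 higher in urethra at either stage (all genes 12.5% and 16.2%). With stage 1 rose (12.5%, all genes 23.7%) and 3 fell (37.5%, all genes 22%) in bladder, and 0 rose (all genes 13.6%) and 1 fell (12.5%, all genes 10.8%) in urethra. In a list of 8, a single gene makes 12.5%. Creb3l1, a transcription factor of the endoplasmic reticulum known to drive type I collagen genes, was measured at 135, 268 and 190 CPM in bladder and 60.2, 60.3 and 43.2 in urethra at E14.5, and 123, 103 and 106 in bladder and 74.4, 62.3 and 70.9 in urethra at E18.5. Bladder exceeded urethra at E14.5 (log2 difference 1.86 ± 0.22, adjusted p = 0.000192) and E18.5 (log2 difference 0.68 ± 0.21, adjusted p = 0.0244). The level fell in bladder with stage (log2 difference -0.83 ± 0.21, adjusted p = 0.00639). Sec24d, a coat protein of transport vesicles, was higher in bladder at E14.5 (log2 difference 0.91 ± 0.17, adjusted p = 0.003), and Mia2, a cargo receptor family member, rose in bladder (log2 difference 0.82 ± 0.09, adjusted p = 2.17e-05). Mia3, of the same family, was called in no comparison.

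Of 13 genes for propeptide removal and crosslinking, 3 were higher in bladder (23.1%, all genes 12.4%) and 2 higher in urethra (15.4%, all genes 12.5%) at E14.5. At E18.5, 5 were higher in bladder (38.5%, all genes 18.52%) and 2 higher in urethra (15.4%, all genes 16.2%). With stage 4 rose (30.8%, all genes 23.7%) and 2 fell (15.4%, all genes 22%) in bladder, and 4 rose (30.8%, all genes 13.6%) and 1 fell (7.69%, all genes 10.8%) in urethra. The counts higher in urethra were near the share of all genes. Tll1, a protease that trims propeptides, was measured at 4.11, 4.60 and 4.71 CPM in bladder and 23.5, 20.2 and 33.6 in urethra at E14.5, and 5.49, 4.02 and 4.19 in bladder and 5.60, 5.73 and 3.53 in urethra at E18.5. The E14.5 urethral libraries stood above all others (log2 difference -2.53 ± 0.26, adjusted p = 8.87e-05), and the level fell in urethra (log2 difference -2.38 ± 0.26, adjusted p = 0.000214). Its relative Tll2 was higher in urethra at E14.5 (log2 difference -4.37 ± 0.49, adjusted p = 0.000147) and E18.5 (log2 difference -3.27 ± 0.44, adjusted p = 0.000125). Loxl4, a lysyl oxidase family member, was higher in bladder at E18.5 (log2 difference 2.44 ± 0.38, adjusted p = 0.000384). Bmp1, the best known protease of this group, was called in no comparison.

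Of 9 collagen receptors, 1 was higher in bladder (11.1%, all genes 12.4%) and 0 higher in urethra (all genes 12.5%) at E14.5. At E18.5, 3 were higher in bladder (33.3%, all genes 18.52%) and 2 higher in urethra (22.2%, all genes 16.2%). With stage 4 rose (44.4%, all genes 23.7%) and 1 fell (11.1%, all genes 22%) in bladder, and 1 rose (11.1%, all genes 13.6%) and 0 fell (all genes 10.8%) in urethra. At E14.5 and in urethra the shares were thus no higher than among all genes. Itga1, the integrin subunit that binds type IV and type I collagen, was measured at 98.8, 101 and 92.3 CPM in bladder and 96.7, 64.8 and 75.4 in urethra at E14.5, and 667, 495 and 282 in bladder and 99.1, 74.6 and 77.3 in urethra at E18.5. E18.5 bladder stood above every other group (log2 difference 2.52 ± 0.27, adjusted p = 2.99e-05), after a rise there (log2 difference 2.31 ± 0.27, adjusted p = 4.68e-05) with no call in urethra (adjusted p = 0.838). Its partner Itgb1 was also higher in bladder at E18.5 (log2 difference 1.17 ± 0.20, adjusted p = 0.000652), and Lair1, an inhibitory receptor of leukocytes, was higher in urethra (log2 difference -2.80 ± 0.75, adjusted p = 0.0114). Itga11 was called in no comparison.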

How the data were processed

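The deposited values were raw counts per gene symbol, made by the authors in 1 table per stage. Per the submitters' processing notes, bcl2fastq, HISAT2 2.2.1, SAMtools 1.9 and the GRCm38 build were used; which program counted the reads, whether it used strand, and with which annotation is not given in the sources used here. In each library the value 2 was 2.06 to 2.51 times as frequent as the value 1, as when both mates of a pair are counted, so counts are not independent molecules.

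Libraries were grouped by stage and compartment from their labels. The tables were joined by symbol, genes were kept by filterByExpr (minimum count 10), and edgeR 4.0.16 (R 4.3.3) fitted 1 quasi-likelihood model with robust estimation, TMM factors and 4 group means to all 12 libraries (8 residual degrees of freedom). The 5 contrasts were bladder against urethra at each stage, E18.5 against E14.5 within bladder and within urethra, and the change of the compartment difference. p-values were adjusted by Benjamini-Hochberg over 18805 genes per contrast. Tested on simulated data with the contrast of bladder against urethra at E14.5 (18405 genes), the steps recovered 45% of 2-fold and 81% of 4-fold changes, with 5.26% of calls false. The values were 44%, 66% and 2.65% for the compartments at E18.5 (18445 genes), 41%, 68% and 6.84% for stage in bladder (18443 genes), 43%, 72% and 7.26% for stage in urethra (18411 genes), and 17%, 54% and 6.58% for the change of the compartment difference (18416 genes).

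The members and lists were chosen with earlier results of these data known. Values in every library are given for the 3 most abundant chains of each class per kilobase and, in each comparison, for the chains with the largest called differences (up to 4 per direction). Other chains were named because every member was to be accounted for. In the collagen-handling lists, up to 3 genes with the largest called difference and the most abundant gene called nowhere were named. Ratios of chains were computed within a library from counts per exon base.

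Alternatives were DESeq2 1.42.0, median-ratio factors, library totals without TMM, no low-count filter, a stricter one (1 CPM on average, and at least 10 counts throughout a group), only the libraries compared, a replicate block, and each library left out in turn; a fit without bladder and urethral replicate 1 of E14.5 was added after seeing the data. Replicate numbers were taken from the labels. For stage, the replicate block joined equal numbers of E14.5 and E18.5, a match that was not checked and that no label gives. Over 18805 genes, deviations from the group means of same-numbered bladder and urethral libraries correlated at 0.197, 0.193 and 0.286 at E18.5 and at 0.191, -0.0285 and 0.206 at E14.5. Libraries of different numbers correlated at -0.136 to -0.0852 at E18.5 and at -0.265 to 0.133 at E14.5. The numbers were therefore read as pairing the E18.5 libraries and not the E14.5 ones. The main test leaves this pairing out, also at E18.5, and only the replicate block uses it. Promoter windows came from RefSeq (GRCm38.p6).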

Additional observations from a re-analysis of the deposited data

Results flagged for a closer look

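The difference between bladder and urethra changed between E14.5 and E18.5 for 10 chains by edgeR's test of the change itself, adjusted over all genes. Of these, 9 shifted toward urethra, with log2 changes of -2.22 for Col9a1 (adjusted p = 0.0355), -1.56 for Col9a2 (0.00999), -3.57 for Col9a3 (0.00106), -1.63 for Col4a3 (0.0473) and -1.28 for Col8a2 (0.00359). The others were -1.16 for Col12a1 (adjusted p = 0.0198), -3.95 for Col22a1 (0.00813), -2.87 for Col13a1 (0.00114) and -2.27 for Col26a1 (0.0186). Col15a1 shifted toward bladder, by 1.56 (adjusted p = 0.0274). The calls on Col9a2, Col9a3, Col8a2, Col12a1, Col22a1 and Col13a1 were made under all 19 alternatives run; those on Col9a1, Col4a3, Col15a1 and Col26a1 were not. Col9a1 lost its call without bladder E14.5 replicate 2, urethral E14.5 replicates 2 or 3, bladder E18.5 replicates 1 or 2 or urethral E18.5 replicates 1 or 3 (log2 differences -1.95 to -2.16, adjusted p = 0.0571 to 0.0876). Col4a3 lost it without bladder E14.5 replicates 1 or 2, urethral E14.5 replicates 1 or 3, bladder E18.5 replicates 1, 2 or 3, urethral E18.5 replicates 1 or 3 or replicate 1 of both E14.5 groups (log2 differences -1.37 to -1.77, adjusted p = 0.06 to 0.116). Col15a1 lost it without bladder E14.5 replicate 3, urethral E14.5 replicates 1 or 3, bladder E18.5 replicates 1 or 2 or urethral E18.5 replicates 2 or 3, or with no low-count filter (log2 differences 1.31 to 1.55, adjusted p = 0.0526 to 0.0741). Col26a1 lost it without urethral E14.5 replicate 3 or bladder E18.5 replicate 1, or with no low-count filter (log2 differences -2.17 to -2.27, adjusted p = 0.0509 to 0.0634).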

How the results depend on the processing

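Of the called chains, 15 of 26 at E14.5, 22 of 31 at E18.5, 27 of 35 with stage in bladder and 20 of 28 in urethra were called under all 20 alternatives run, and 6 of 10 changes of the compartment difference under all 19. No called difference took the opposite sign in any alternative run. Of the chains not called, 5 of 17 at E14.5, 6 of 12 at E18.5, 5 of 8 with stage in bladder, 11 of 15 in urethra and 11 of 33 for the change were called in at least 1 alternative. With library totals in place of TMM factors the median log2 difference over all genes moved to -0.132 at E14.5, -0.262 at E18.5, -0.201 with stage in bladder and -0.164 for the change, against -0.0035, 0.0474, -0.0230 and 0.0180; summed collagen at E18.5 was then 38007 CPM in bladder and 29281 in urethra. At E18.5 that scaling called 1888 genes higher in bladder and 5640 higher in urethra, and for the change of the compartment difference 553 toward bladder and 1395 toward urethra, with 14 chains toward urethra. With library totals the E18.5 calls on Col3a1 (adjusted p = 0.0617) and Col14a1 (0.212) and the bladder stage calls on Col1a1 (0.0888), Col1a2 (0.137), Col3a1 (0.0649) and Col5a1 (0.0770) were lost. For the change, DESeq2 called 2 chains toward bladder and 1320 genes toward urethra. Fitting only the libraries compared gave 1384 genes higher in bladder at E14.5, and with no low-count filter 2 chains fell in urethra.

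Leaving out 1 library at a time, at E14.5 8 to 14 chains were higher in bladder and 7 to 12 higher in urethra, and 1403 to 2403 and 1261 to 2729 genes of all. The fewest came without urethral E14.5 replicate 3 (8 chains, 1403 genes) and bladder E14.5 replicate 3 (7 chains, 1261 genes). With stage in urethra 1 to 5 chains fell, and 1461 to 2909 genes rose and 890 to 2260 fell, the fewest without urethral E14.5 replicate 3. For the change, 0 to 3 chains and 502 to 1505 genes shifted toward bladder, and 470 to 917 genes toward urethra, with 0 chains without bladder E14.5 replicate 3 and 3 without bladder E14.5 replicate 1. Without replicate 1 of both E14.5 groups, chosen after seeing the data, the change was called toward bladder for 2 chains and 1450 genes. The cause of these shifts was not tested.

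With the replicate number as a block, 16 chains were higher in bladder and 12 higher in urethra at E14.5, 16 and 17 at E18.5, 23 rose and 10 fell in bladder, 25 rose and 5 fell in urethra, and the change was called for 1 and 10. The share of all genes called with the block is not given here, so these counts are not read as particular to collagens. At E14.5, where the check did not bear out the pairing, the block added calls on Col9a3 (adjusted p = 0.0211), Col6a2 (0.0449) and Col7a1 (0.00368). It lost Col6a6 there (0.0641). For the change, which also uses the E14.5 numbers, it added Col24a1 (0.0471), which 6 further alternatives also called. In the stage comparisons the block joined equal numbers of E14.5 and E18.5, a match that the check did not cover and no label gives. There it added Col9a1 (0.0418) and Col19a1 (0.0255) in urethra, and lost Col1a2 (0.0644) and Col28a1 (0.0544) in bladder. The block changed no E18.5 compartment call beyond Col4a1, Col4a4, Col17a1 and Col25a1. Depth limits Col10a1, Col6a5 at E14.5, Col28a1 at E14.5 and Col2a1 in E18.5 bladder, which rest on few counts.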

Other observations

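Other lists of cell markers also differed between groups. Of 7 neuron markers, 6 were higher in urethra at E14.5 (all genes 12.5%) and all 7 at E18.5 (all genes 16.2%). The 5 leukocyte markers were called in 0 comparisons between compartments, and 5 rose with stage in urethra (all genes 13.6%) and 3 in bladder (all genes 23.7%). Of 7 bone markers, 6 passed the low-count filter, of which 1 was higher in bladder (16.7%, all genes 12.4%) and 3 higher in urethra (50%, all genes 12.5%) at E14.5. At E18.5 1 was higher in each compartment, 16.7% of the list against 18.52% and 16.2% of all genes, near the background. Their part in the collagen differences was not tested.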
